A study of Homo sapiens with 27 samples.

Results

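Interferon-stimulated genes are the genes that a cell turns on when interferon reaches its surface. A total of 39 such genes, chosen by symbol from the deposited gene table, were followed through 9 groups of MCF10A cells. All 39 were found among the 36536 genes of the table, in 42 rows, and rows that shared a symbol were summed. MCF10A is an established, non-tumorigenic line of human mammary epithelial cells, and the labels call it normal breast epithelium. Cells of every group were plated on collagen in growth medium that held 20 ng/ml epidermal growth factor (EGF), serum, insulin, hydrocortisone and cholera toxin, and then spent 18 h in medium free of growth factors. T0 was collected at 0 h. The other groups were collected 24 h after fresh medium with phosphate-buffered saline (PBS), EGF, OSM (oncostatin M, a relative of interleukin-6) or transforming growth factor beta (TGFB), with each pair (EGF+OSM, EGF+TGFB and OSM+TGFB), or with the 3 ligands together (EGF+OSM+TGFB). Each ligand was given at 10 ng/ml. Each group had 3 libraries of polyadenylated RNA, 27 in all, from this 1 line. No label says that replicates came from separate cultures, so p-values measure the spread between these samples, which may be technical. The series addresses whether combined signals act additively. No group received interferon.

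Type I and type III interferons act through receptors whose JAK kinases phosphorylate STAT factors. These join IRF9 to form the complex ISGF3, which binds the interferon-stimulated response element of its target genes. Interferon gamma acts through STAT dimers and induces a partly different set, with IRF1 and the guanylate-binding proteins among its usual targets. OSM signals through gp130 and STAT3, EGF through the RAS and ERK cascade and other routes, and TGFB through SMAD factors. Epithelial cells keep low levels of many interferon-stimulated genes without any infection.

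The promoters of 31 of the 39 genes matched the RefSeq table (GRCh38.p14, 250 bases before to 50 after each start) by symbol. GBP2, DHX58, IFIT2, IRF7, MX2, OAS2, OASL and USP18 did not. The core of the response element was searched as GAAANNGAAA, or TTTCNNTTTC on the other strand. It was present in 22 of 31 (71.0%), against 4.38% of the 27305 genes in that table. The site of STAT dimers was searched as TTCNNNGAA, which reads the same on both strands and can share bases with the former motif. It was present in 11 of 31 (35.5%), against 9.38% of all genes in the table. A match describes the letters of the window and is not evidence of binding. Promoter stretches of 4 genes that respond differently below are shown 5′ to 3′ on the gene's strand with the response-element matches in capitals.
IFIT1, chr10:89392423-89392545, plus strand: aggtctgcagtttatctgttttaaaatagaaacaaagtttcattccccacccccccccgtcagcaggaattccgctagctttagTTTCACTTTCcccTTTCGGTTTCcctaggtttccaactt
IFI44L, chr1:78620248-78620384, plus strand: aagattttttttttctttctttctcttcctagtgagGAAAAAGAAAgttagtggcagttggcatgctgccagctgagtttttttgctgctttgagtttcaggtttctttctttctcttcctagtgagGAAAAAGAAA
IFITM1, chr11:313990-314019, plus strand: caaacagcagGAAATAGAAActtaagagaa
GBP1, chr1:89065316-89065345, minus strand: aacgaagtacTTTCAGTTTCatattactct
The IFIT1 stretch has matches at -116 to -107 and -103 to -94 from the RefSeq start and ends where the earliest exon annotated in GENCODE begins. The IFI44L stretch has the same 10-base match at -164 to -155 and -73 to -64, and lies in an intron of a longer IFI44L transcript except for its last 3 bases, which an exon covers. IFITM1 has matches at -40 to -31 and at -6 to 3, of which the first is shown. That match and the GBP1 match at -127 to -118 lie in an exon of another annotated transcript, and only the match with 10 bases on each side is printed for them. The matching genes did not respond in 1 direction. With EGF, 4 of the 22 genes with the response-element match rose and 15 fell (median log2 fold change -0.62), and 1 of the 9 without it rose and 6 fell (median -1.16). With OSM the counts were 10 and 7 of 22 (median 0.10), and 6 and 2 of 9 (median 0.44).

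The libraries held 30.1 to 52.9 M (mega) counts each, 39.5 M at the median. Levels are counts per 1 M library counts (CPM) after scaling by the trimmed mean of M-values. All 39 members passed the filter on low counts. The 9 epithelial markers (such as KRT5, KRT14, TP63 and CDH1) were at or above 1 CPM in every group. Of the 7 leukocyte markers, PTPRC, LYZ, CD3E and CLEC4C lay between 0 and 0.225 CPM in every library, while CD14 lay between 1.70 and 79.3 and CD68 between 20.2 and 50.4. The summed leukocyte list was lowest with EGF (26.1 to 29.8 CPM) and highest with OSM (96.2 to 119). The 6 fibroblast markers summed to 129 to 133 CPM in PBS, 30.8 to 35.9 with EGF and 204 to 214 with TGFB, through COL1A1 and DCN, with COL1A2, COL3A1 and THY1 at most at 0.453 CPM. The 3 endothelial markers summed to at most 4.59 CPM. What part these levels have in the results was not tested.

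With EGF, most interferon-stimulated genes fell. A total of 33 of 39 passed the test (84.6%), against 73.5% of the 15575 genes tested (edgeR's quasi-likelihood test, Benjamini-Hochberg adjusted p under 0.05). Of these, 6 rose (34.9% of all genes did) and 27 fell (38.6% of all genes did). The median log2 fold change was -0.72, against -0.07 over all genes. At least 2-fold falls were called for 17 members (15.9% of all genes) and at least 2-fold rises for 1, GBP1 (11.7% of all genes). With OSM 27 passed, 16 higher and 11 lower, which is 69.2% against 63.4% of all genes (33.5% higher and 29.8% lower), and the median was 0.12 (-0.06 without OSM replicate 1 and 0.32 without OSM replicate 3). With TGFB 16 passed, 6 higher and 10 lower, which is 41.0% against 35.6% of all genes (19.9% higher and 15.8% lower), and the median was 0.06. The total counts for OSM and TGFB were therefore near the background. With TGFB, however, more members were called lower than higher, while over all genes more were called higher. The members' median was still above 0, against -0.009 over all genes. Leaving out 1 library gave 11 to 15 calls. It could end the call of DHX58, IFI6 and MX2, which fell, and of DDX60 and XAF1, which rose. These comparisons share the PBS libraries. In bulk RNA, fewer cells that express a gene and less of its RNA per cell cannot be told apart.

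Against the same PBS libraries, the combinations moved members as follows. EGF+OSM called 32, 9 higher and 23 lower (77.2% of all genes were called, 37.6% higher and 39.6% lower), with a median of -0.42. EGF+TGFB called 29, 8 higher and 21 lower (73.7%, with 36.2% and 37.5%), with a median of -0.40. OSM+TGFB called 27, 14 higher and 13 lower (66.0%, with 34.2% and 31.8%), and EGF+OSM+TGFB 30, 13 higher and 17 lower (74.4%, with 37.7% and 36.7%).

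The direct comparison of EGF with OSM, which uses no PBS library, called 28 members (71.8%, against 56.8% of all genes). EGF was lower than OSM for 25 of them (28.0% of all genes) and higher for 3 (28.8%), IFIT5, OAS3 and USP18. The median was -0.73. Over the 9 groups, EGF had the lowest mean for 13 members and the highest for 0. OSM had the highest for 8, PBS for 7 and OSM+TGFB for 6. Shares over all genes are not given for these counts. All 39 members passed in at least 1 of the 7 treatments against PBS. The share of all genes that did so is not given here, but EGF+OSM alone called 77.2% of them.

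**Figure D1:**
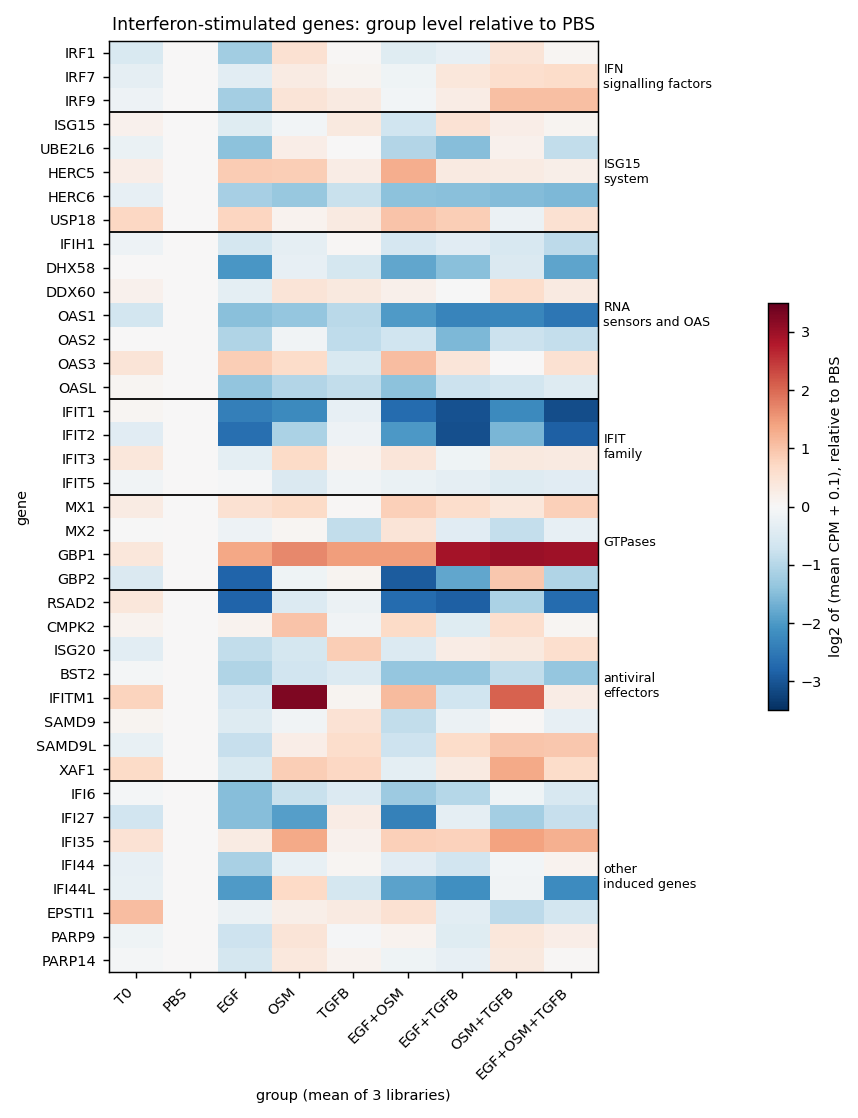
Mean level of each of the 39 genes (rows, by role) in each of the 9 groups (columns, 3 libraries each) relative to PBS, as log2 of mean CPM plus 0.1, in colour from blue (lower) to red (higher). The EGF column is mostly blue, with a median log2 fold change of -0.72 by edgeR, and the GBP1 row is red in every ligand group.

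Among the 3 signalling factors, EGF lowered all 3, OSM raised IRF1 and IRF9, and TGFB alone called 0. Of all genes, EGF raised 34.9% and lowered 38.6%, OSM 33.5% and 29.8%, and TGFB 19.9% and 15.8%. The counts by role, here and below, are small and are to be read beside these shares. IRF1 (ENSG00000125347, chromosome 5, 132440440 to 132508719, minus strand) is a transcription factor induced by interferon gamma that activates antiviral and antigen-presentation genes. Its level was 26.9, 33.9 and 28.2 CPM in the PBS libraries, 12.8, 13.3 and 12.0 in the EGF libraries and 41.6, 51.9 and 34.3 in the OSM libraries. The 3 groups did not overlap, with every EGF library below and every OSM library above all PBS libraries. The log2 fold change was -1.22 ± 0.12 (SE) with EGF (edgeR adjusted p 2.2e-09) and 0.52 ± 0.11 (SE) with OSM (adjusted p 0.0003). TGFB alone left 29.6, 32.6 and 28.7 CPM, a log2 fold change of 0.03 ± 0.11 (SE) that did not pass.

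IRF9 (ENSG00000213928, chromosome 14, 24161234 to 24168043, plus strand) is the DNA-binding subunit of ISGF3. It had 2 rows with identical values, so its summed level may count the same reads more than once, while its fold changes do not depend on that. The sums were 11, 14.3 and 11.5 CPM in the PBS libraries, 6.14, 5.51 and 4.19 in the EGF libraries and 18.6, 17.7 and 13.7 in the OSM libraries. The EGF libraries were all below PBS, and OSM replicate 3 lay below the highest PBS library. On the log2 scale the changes were -1.21 ± 0.14 (SE) with EGF (edgeR adjusted p 1.8e-08) and 0.44 ± 0.13 (SE) with OSM (0.0039). IRF9 was highest where TGFB met OSM: 27.1, 26.1 and 22.7 CPM in OSM+TGFB and 25.9, 27.4 and 23.8 with the 3 ligands together. In EGF+TGFB it was at 15.3, 15.8 and 13 CPM, above every EGF library. Adding TGFB to EGF raised it by 1.48 ± 0.14 (SE) on the log2 scale (adjusted p 2.1e-09).

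IRF7 (ENSG00000185507, chromosome 11, 612553 to 615983, minus strand), the factor that amplifies type I interferon production, varied less. It had 2 rows, and 95.6% of its counts came from the second identifier, ENSG00000276561, while the position is that of the first. Its level was 3.60, 4.21 and 3.91 CPM in PBS, 2.72, 3.19 and 3.12 with EGF, and 5.58, 6.93 and 5.83 with the 3 ligands together. EGF changed it by -0.38 ± 0.17 (SE) on the log2 scale (edgeR adjusted p 0.049), a call that 10 alternatives lost, among them leaving out EGF replicate 1 (-0.31, adjusted p 0.155) or PBS replicate 2 (-0.32, adjusted p 0.144). Adding TGFB to EGF raised it by 0.79 ± 0.17 (SE) (0.00026).

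The ISG15 system attaches the ubiquitin-like protein ISG15 to other proteins, with UBE2L6 as its conjugating enzyme, HERC5 as its main human ligase, and USP18 as the protease that removes it. Its 5 genes all passed with EGF (73.5% of all genes did), in different directions. HERC5 and USP18 rose, and ISG15, UBE2L6 and HERC6 fell. ISG15 was not called without PBS replicate 2 (-0.37, adjusted p 0.0888) or EGF replicate 2 (-0.36, adjusted p 0.1). OSM raised 2 of the 5 and lowered 1, and TGFB lowered 1. UBE2L6 (ENSG00000156587, chromosome 11, 57551656 to 57568284, minus strand) was at 18.4, 18.7 and 16.9 CPM in PBS and 7.52, 6.89 and 5.56 with EGF, so that the groups were far apart. The log2 fold change was -1.43 ± 0.11 (SE) (edgeR adjusted p 5.9e-12), and UBE2L6 fell when EGF was added to OSM, TGFB or OSM+TGFB as well. With OSM it was at 21.4, 24.5 and 17.9 CPM and the value was 0.24 ± 0.10 (SE) (adjusted p 0.038), lost under 10 alternatives, for example without OSM replicate 2 (0.13, adjusted p 0.305).

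HERC6 (ENSG00000138642, chromosome 4, 88378739 to 88443097, plus strand), a relative of HERC5, went from 35.3, 36.7 and 35.3 CPM in PBS to 14.6, 17.4 and 15.8 with EGF, 13.2, 17.2 and 12.4 with OSM and 19.3, 21.9 and 20.8 with TGFB. All 3 ligands gave libraries below every PBS library. Log2 fold changes were -1.16 ± 0.11 (SE), -1.32 ± 0.12 (SE) and -0.79 ± 0.11 (SE), and the pairs and the 3 ligands together lay between 12.0 and 13.2 CPM on average. HERC5 (ENSG00000138646, chromosome 4, 88457119 to 88506163, plus strand) moved the other way: it was at 1.58, 1.47 and 0.978 CPM in PBS, 2.49, 2.57 and 2.59 with EGF, 2.62, 2.57 and 2.43 with OSM and 3.33, 3.17 and 3.59 with both. The log2 fold changes were 0.93 ± 0.17 (SE) with EGF and 0.92 ± 0.17 (SE) with OSM (edgeR adjusted p 2.5e-05 and 4e-05). With EGF+TGFB it was back at 1.48, 1.5 and 2.06 CPM, and adding TGFB to EGF lowered it (-0.61 ± 0.17, adjusted p 0.003).

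The RNA sensors and oligoadenylate synthetases detect viral RNA: IFIH1 (MDA5) and DHX58 (LGP2) bind double-stranded RNA, and OAS1, OAS2 and OAS3 make the second messenger that activates RNase L. All 7 passed with EGF (73.5% of all genes did), 6 lower and OAS3 higher. OSM raised 2 and lowered 3, and TGFB raised 1 and lowered 5. DHX58 (ENSG00000108771, chromosome 17, 42101404 to 42112714, minus strand) was at 1.48, 1.40 and 1.34 CPM in PBS and 0.334, 0.220 and 0.244 with EGF, a log2 fold change of -2.39 ± 0.29 (SE) (edgeR adjusted p 4.8e-08). Its EGF libraries lay far under PBS, and with EGF+OSM it stood at 0.406, 0.396 and 0.177 CPM. TGFB gave -0.67 ± 0.26 (SE) (adjusted p 0.044), which was lost under 7 alternatives, including leaving out any PBS library.

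OAS1 (ENSG00000089127, chromosome 12, 112905856 to 112933219, plus strand) fell with every ligand and fell most where ligands met. It was at 31.5, 35.4 and 31.4 CPM in PBS, 11.4, 12.7 and 11.6 with EGF, 11.5, 14.8 and 11.6 with OSM, 16.7, 17.1 and 17.5 with TGFB, and 4.89, 6.79 and 5.14 with the 3 ligands together. No ligand library reached the PBS range. On the log2 scale the changes were -1.46 ± 0.11 (SE), -1.37 ± 0.11 (SE) and -0.94 ± 0.11 (SE) for the single ligands and -2.56 ± 0.12 (SE) for all 3 (edgeR adjusted p 5.3e-16). OAS2 (ENSG00000111335, chromosome 12, 112978395 to 113011723, plus strand) was at 2.58, 2.63 and 2.10 CPM in PBS, 1.27, 1.30 and 0.829 with EGF and 1.51, 1.15 and 1.15 with TGFB (-1.10 ± 0.20 and -0.94 ± 0.20, both called). With OSM it was at 2.02, 2.60 and 2.05, within the spread of PBS (-0.13 ± 0.19, adjusted p 0.57).

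OAS3 (ENSG00000111331, chromosome 12, 112938051 to 112976460, plus strand), singled out after its values were seen, rose with EGF where OAS1 and OAS2 fell. It was at 39.8, 40.7 and 42.4 CPM in PBS, 69.9, 74.5 and 79.5 with EGF, 60.7, 62.5 and 69.9 with OSM and 26.0, 31.4 and 27.1 with TGFB. The EGF and OSM libraries all lay above PBS and the TGFB libraries all below. Log2 fold changes were 0.87 ± 0.08 (SE), 0.65 ± 0.08 (SE) and -0.54 ± 0.08 (SE) (edgeR adjusted p 4.6e-10, 1.1e-07 and 1e-05). OASL (ENSG00000135114, chromosome 12, 121017763 to 121039246, minus strand), a relative without synthetase activity, fell with each ligand. It was at 3.45, 4.94 and 5.16 CPM in PBS, 1.71, 1.66 and 1.68 with EGF, 1.74, 2.46 and 2.24 with OSM and 2.01, 2.64 and 2.62 with TGFB. On the log2 scale the changes were -1.42 ± 0.18 (SE), -1.07 ± 0.17 (SE) and -0.90 ± 0.17 (SE). The libraries with the 3 ligands together, at 3.35, 3.17 and 3.35 CPM, all lay above every library with a single ligand.

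The IFIT proteins bind viral RNA and block its translation. Of the 4 genes EGF lowered 3 and OSM raised 1 and lowered 3, with the larger falls in IFIT1 and IFIT2, and TGFB alone called 0. IFIT1 (ENSG00000185745, chromosome 10, 89392546 to 89406487, plus strand) was at 6.65, 8.02 and 6.77 CPM in PBS, 0.912, 1.34 and 1.59 with EGF, 1.34, 1.93 and 1.11 with OSM and 5.61, 6.99 and 4.97 with TGFB. The EGF and OSM libraries were all below every PBS library, and the TGFB libraries overlapped PBS. Log2 fold changes were -2.49 ± 0.20 (SE) with EGF (edgeR adjusted p 2.4e-11), -2.28 ± 0.20 (SE) with OSM (1.8e-10) and -0.29 ± 0.18 (SE) with TGFB, which did not pass. All groups with EGF or OSM had means between 0.740 and 1.46 CPM.

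IFIT2 (ENSG00000119922, chromosome 10, 89283694 to 89309271, plus strand) was at 7.40, 9.51 and 6.65 CPM in the PBS libraries, 1.00, 1.24 and 1.32 in the EGF libraries and 3.36, 4.84 and 2.59 in the OSM libraries. EGF gave -2.73 ± 0.23 (SE) and OSM -1.12 ± 0.21 (SE) on the log2 scale (edgeR adjusted p 7e-11 and 4.3e-05). EGF against OSM was -1.61 ± 0.24 (SE) for IFIT2 (adjusted p 2.2e-06) and -0.21 ± 0.22 (SE) for IFIT1, which did not pass (0.43). IFIT3 (ENSG00000119917, chromosome 10, 89327307 to 89377473, plus strand) was at 5.45, 6.41 and 5.91 CPM in the PBS libraries, 4.67, 4.57 and 4.80 in the EGF libraries and 9.79, 10.4 and 8.13 in the OSM libraries. OSM raised it by 0.67 ± 0.10 (SE) (adjusted p 1.3e-06), the opposite direction to its neighbours IFIT1 and IFIT2, and EGF gave -0.34 ± 0.10 (SE). IFIT5 had a log2 fold change of -0.05 ± 0.07 (SE) with EGF, not called, and -0.51 ± 0.07 (SE) with OSM.

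**Figure D2:**
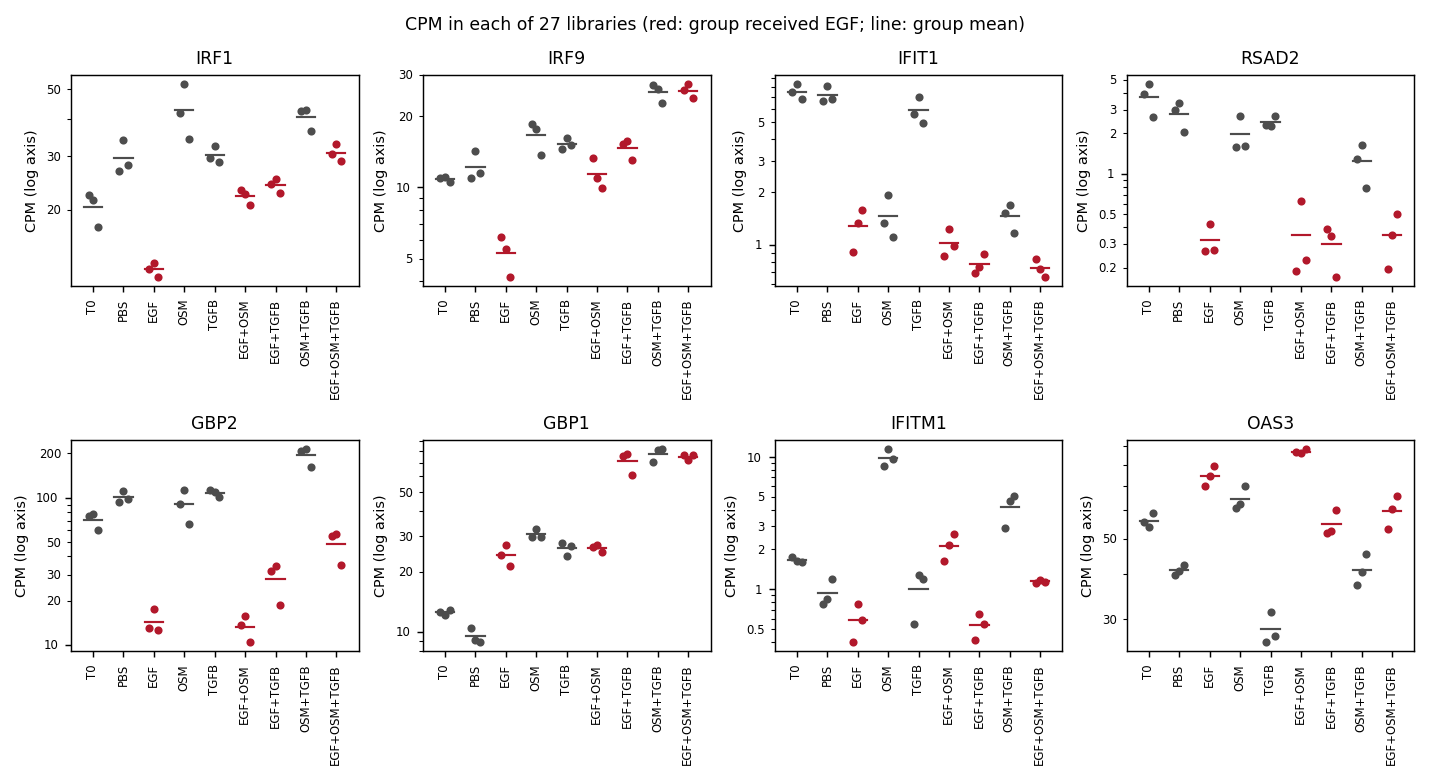
CPM on a log axis in each of the 27 libraries for 8 genes, with red points for groups that received EGF, grey points for the others and a line at each group mean. EGF alone lowered GBP2 to a mean of 14.4 CPM from 101 in PBS and raised GBP1 to 24.2 from 9.47.

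The GTPases of the list are the MX proteins, which block virus assembly and entry, and the guanylate-binding proteins, which attack the membranes around intracellular pathogens. EGF raised 2 of the 4 and lowered 1, OSM raised 2, and TGFB raised 1 and lowered 1. GBP1 (ENSG00000117228, chromosome 1, 89051882 to 89065360, minus strand) was at 10.5, 9.04 and 8.90 CPM in PBS, 24.3, 27.1 and 21.3 with EGF, 29.7, 32.5 and 29.8 with OSM and 27.8, 24.1 and 26.7 with TGFB. Every ligand library was above every PBS library. On the log2 scale the changes were 1.36 ± 0.10 (SE), 1.70 ± 0.10 (SE) and 1.47 ± 0.10 (SE) (edgeR adjusted p 2.3e-12, 5.3e-14 and 4.6e-12). The combinations with TGFB stood higher: 75.7, 77.5 and 61.0 CPM in EGF+TGFB, 70.3, 81.2 and 81.7 in OSM+TGFB and 76.7, 72.0 and 76.5 with the 3 ligands. Those 3 groups overlapped, whereas EGF+OSM, at 26.5, 27.2 and 25 CPM, stayed within the range of the single ligands.

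GBP2 (ENSG00000162645, chromosome 1, 89106132 to 89150456, minus strand) was at 93.0, 111 and 98.1 CPM in PBS, 13, 17.5 and 12.7 with EGF and 13.6, 15.7 and 10.5 with EGF+OSM. The log2 fold change with EGF was -2.80 ± 0.24 (SE) (edgeR adjusted p 1.7e-09), and no EGF library came near the PBS range. Neither OSM (90.8, 114 and 65.8 CPM, -0.16 ± 0.22) nor TGFB (112, 109.6 and 101 CPM, 0.10 ± 0.22) passed alone. Together they gave 209, 213 and 162 CPM, above all PBS libraries, and the log2 fold change against PBS was 0.95 ± 0.22 (SE) (adjusted p 0.00063). Replicate 3 was the lowest library for GBP2 in every group except PBS. MX2 (ENSG00000183486, chromosome 21, 41361999 to 41409393, plus strand) was at 0.725, 0.798 and 0.831 CPM in PBS and 0.548, 0.288 and 0.328 with TGFB, a log2 fold change of -1.01 ± 0.30 (SE) (edgeR adjusted p 0.01) that was not called without TGFB replicate 2 (-0.83, adjusted p 0.0658). Its highest mean was in EGF+OSM, at 0.758, 1.30 and 1.24 CPM. MX1 rose with OSM (0.72 ± 0.19) and with EGF (0.56 ± 0.19), the latter not called without EGF replicate 2 (0.45, adjusted p 0.0644).

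Of the 8 antiviral effectors EGF lowered 5, with RSAD2 lowest. OSM raised 3, with IFITM1 highest, and lowered 2, and TGFB raised 4 and lowered 1. RSAD2 (ENSG00000134321, chromosome 2, 6865557 to 6898239, plus strand), or viperin, makes a chain-terminating nucleotide. It was at 2.98, 3.39 and 2.05 CPM in PBS, 0.267, 0.419 and 0.268 with EGF, 1.59, 2.68 and 1.62 with OSM and 2.30, 2.26 and 2.70 with TGFB. EGF gave a log2 fold change of -3.12 ± 0.38 (SE) (edgeR adjusted p 4.6e-08), and all groups with EGF had means of 0.300 to 0.349 CPM, under every group without EGF. Neither OSM nor TGFB alone passed. Its annotated span overlaps that of CMPK2 on the opposite strand, and the counting step's use of strand is not given in the sources used here.

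IFITM1 (ENSG00000185885, chromosome 11, 310041 to 315272, plus strand) blocks the fusion of viruses with cell membranes. It was at 0.775, 0.841 and 1.2 CPM in PBS, 0.401, 0.778 and 0.585 with EGF, 8.48, 11.4 and 9.61 with OSM, 1.62, 2.16 and 2.63 with EGF+OSM and 2.89, 4.68 and 5.05 with OSM+TGFB. The OSM libraries were far above all others, and those of EGF+OSM and OSM+TGFB lay between them and PBS. OSM gave a log2 fold change of 3.39 ± 0.26 (SE) (edgeR adjusted p 1.9e-11). Adding EGF to OSM gave -2.20 ± 0.24 (SE), and adding TGFB to OSM gave -1.23 ± 0.23 (SE) (adjusted p 2e-08 and 6.8e-05). IFITM1 shares sequence with IFITM2 and IFITM3, which also rose with OSM (2.31 ± 0.10 and 2.61 ± 0.11), so how reads were divided among the 3 is uncertain.

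XAF1 (ENSG00000132530, chromosome 17, 6755447 to 6775647, plus strand), a pro-apoptotic partner of XIAP, was at 1.28, 0.712 and 1.05 CPM in PBS, 2.42, 1.66 and 1.73 with OSM and 3.26, 2.99 and 1.80 with OSM+TGFB. The OSM libraries lay above PBS, with a log2 fold change of 0.94 ± 0.27 (SE) (edgeR adjusted p 0.0038). The TGFB value of 0.79 ± 0.27 (SE) (adjusted p 0.025) was not called without PBS replicate 2 or 3 or without TGFB replicate 2 or 3, with the value lowest at 0.57. Of the other 5 effectors, BST2 (tetherin), the exonuclease ISG20, SAMD9 and SAMD9L fell with EGF (log2 fold changes from -1.05 to -0.46), and CMPK2, a mitochondrial nucleotide kinase, did not pass (0.12 ± 0.27). TGFB raised ISG20 (0.87 ± 0.15), SAMD9 (0.50 ± 0.08) and SAMD9L (0.64 ± 0.14), and OSM raised CMPK2 (1.1 ± 0.26).

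Of the 8 remaining induced genes EGF raised 1 and lowered 6, OSM raised 4 and lowered 2, and TGFB lowered 2. IFI44L (ENSG00000137959, chromosome 1, 78619902 to 78646145, plus strand), a feedback regulator of the interferon response, had the largest difference between EGF and OSM in this role group. It was at 6.85, 7.27 and 7.94 CPM in the PBS libraries, 1.60, 1.88 and 1.83 in the EGF libraries and 11.8, 14.2 and 10.1 in the OSM libraries. The 3 groups did not overlap. EGF gave -2.05 ± 0.15 (SE) (edgeR adjusted p 3.8e-12) and OSM 0.71 ± 0.13 (SE) (4.1e-05), and EGF against OSM was -2.77 ± 0.15 (SE). With EGF+OSM it was at 2.03, 1.89 and 1.90 CPM, just above EGF alone and far below PBS.

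IFI27 (ENSG00000165949, chromosome 14, 94104836 to 94116695, plus strand), a mitochondrial and nuclear-envelope protein, was at 12.1, 18.1 and 14.4 CPM in PBS, 5.36, 5.65 and 4.83 with EGF, 3.36, 4.88 and 3.37 with OSM and 2.19, 3.54 and 2.65 with both. Its 2 rows held 59.5% and 40.5% of its counts. EGF gave -1.49 ± 0.18 (SE) and OSM -1.93 ± 0.19 (SE) (edgeR adjusted p 1.1e-07 and 4.6e-09). IFI27 is the member that OSM lowered in every background. TGFB added to EGF brought it to 11.5, 14.6 and 10.1 CPM, a rise of 1.2 ± 0.19 (SE) (7.4e-06). EPSTI1 (ENSG00000133106, chromosome 13, 42886388 to 42992271, minus strand) was close to the limit of detection, with 0.468, 0.378 and 0.396 CPM in T0, 0.125, 0.0863 and 0.220 in PBS and 0, 0.0862 and 0 in OSM+TGFB, so that its fitted values rest on few counts. IFI6 fell with EGF (-1.55 ± 0.19), as did IFI44 (-1.19 ± 0.19). PARP9 and PARP14, members of the ADP-ribosyltransferase family, fell with EGF (-0.72 ± 0.09 and -0.61 ± 0.07) and rose with OSM (0.44 ± 0.09 and 0.36 ± 0.07). IFI35 rose with OSM (1.35 ± 0.10). It was also the gene raised by EGF, with a log2 fold change of 0.28. The EGF call was lost with upper-quartile scaling (0.22, edgeR adjusted p 0.0537). It was also lost without PBS replicate 2 (0.25, adjusted p 0.0556) or EGF replicate 1 (0.24, adjusted p 0.066).

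Each ligand was also tested in cells that received another ligand, where each comparison uses its own 2 groups of libraries. Added to OSM, EGF moved 30 members, 4 higher and 26 lower (61.7% of all genes were called, 29.9% higher and 31.8% lower). Added to TGFB it moved 29, 5 higher and 24 lower (69.4%, with 33.9% and 35.5%), and added to OSM+TGFB 18, 3 higher and 15 lower (52.2%, with 26.3% and 25.9%). In all 4 backgrounds EGF lowered 12 members (16.7% of all genes): BST2, DDX60, DHX58, GBP2, IFI44L, IFIH1, IFIT2, IRF1, PARP14, RSAD2, SAMD9 and UBE2L6. Of these, 3 lost the call in a background when 1 library was left out: DDX60 (OSM replicate 2 or 3, EGF+OSM replicate 1 or 3, EGF+TGFB replicate 3, OSM+TGFB replicate 1 or 2, or EGF+OSM+TGFB replicate 2), IFIH1 (OSM replicate 2 or EGF+OSM replicate 1 or 3) and IRF1 (TGFB replicate 2 or EGF+TGFB replicate 3), with adjusted p of 0.0668 to 0.209. With EGF added to OSM, DDX60 and IFIH1 were also not called with DESeq2's size factors (adjusted p 0.0535 and 0.0507), with DESeq2's Wald test (0.0546 and 0.0518) or with no filter on low counts (0.0617 and 0.0587). With no filter, DDX60 with EGF added to OSM+TGFB (0.0551) and IRF1 with EGF added to TGFB (0.0708) were not called either. EGF raised OAS3 and USP18 in all 4 (17.4% of all genes were). RSAD2 had log2 fold changes of -2.47 ± 0.38 (SE), -2.95 ± 0.39 (SE) and -1.86 ± 0.41 (SE) when EGF was added to OSM, TGFB and OSM+TGFB. For IRF9, EGF added to OSM gave -0.55 ± 0.13 (SE) (edgeR adjusted p 0.00071), added to TGFB -0.05 ± 0.13 (SE) and added to OSM+TGFB 0.02 ± 0.12 (SE), the latter pair not called.

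OSM added to EGF moved 17 members, 12 higher and 5 lower (34.9% of all genes were called, 17.8% higher and 17.1% lower). Added to TGFB it moved 28, 15 higher and 13 lower (56.6%, with 30.1% and 26.4%), and added to EGF+TGFB 14, 12 higher and 2 lower (26.4% of all genes, 13.6% higher and 12.8% lower). OSM raised 7 members in all 4 backgrounds (6.41% of all genes): DDX60, IFI35, IFITM1, IRF1, IRF9, PARP14 and PARP9. It lowered IFI27 in all 4 (5.68%). Leaving out 1 library ended a call of 5 of these 8 in a background: DDX60 (TGFB replicate 1 or 3, OSM+TGFB replicate 1 or 2, EGF+TGFB replicate 1 or 3, or EGF+OSM+TGFB replicate 1 or 3), IRF1 (EGF+TGFB replicate 1 or 3, or EGF+OSM+TGFB replicate 1 or 2), IFITM1 (EGF+TGFB replicate 1), PARP14 (OSM+TGFB replicate 2) and IFI27 (EGF+TGFB replicate 2, or EGF+OSM+TGFB replicate 1 or 3), with adjusted p of 0.0561 to 0.21. With no filter on low counts, DDX60, IRF1 and IFI27 with OSM added to EGF+TGFB were not called (0.0505, 0.0828 and 0.0637). DDX60 was also not called there with only the groups compared (0.0592), nor for OSM added to TGFB with upper-quartile scaling (0.098). IFIT2 was the member called in both directions, at -1.12 ± 0.21 (SE) against PBS and 0.66 ± 0.25 (SE) added to EGF (edgeR adjusted p 0.04), the latter not called without any 1 of 5 libraries, EGF replicates 1 and 2 and EGF+OSM replicates 1, 2 and 3 (adjusted p 0.0605 to 0.144).

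TGFB added to EGF moved 26 members, 18 higher and 8 lower (54.6% of all genes were called, 27% higher and 27.7% lower). Added to OSM it moved 18, 7 higher and 11 lower (51.6%, with 26.1% and 25.6%), and added to EGF+OSM 27, 16 higher and 11 lower (61.1%, with 31.6% and 29.5%). TGFB raised GBP1, ISG20 and SAMD9L in all 4 backgrounds (11.6% of all genes) and lowered OAS1 and OAS3 in all 4 (7.98%). The signalling factors IRF1, IRF7 and IRF9 all rose when TGFB was added to EGF or to EGF+OSM. SAMD9L rose by 1.5 ± 0.15 (SE) when TGFB was added to EGF and by 1.73 ± 0.15 (SE) when added to EGF+OSM.

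**Figure D3:**
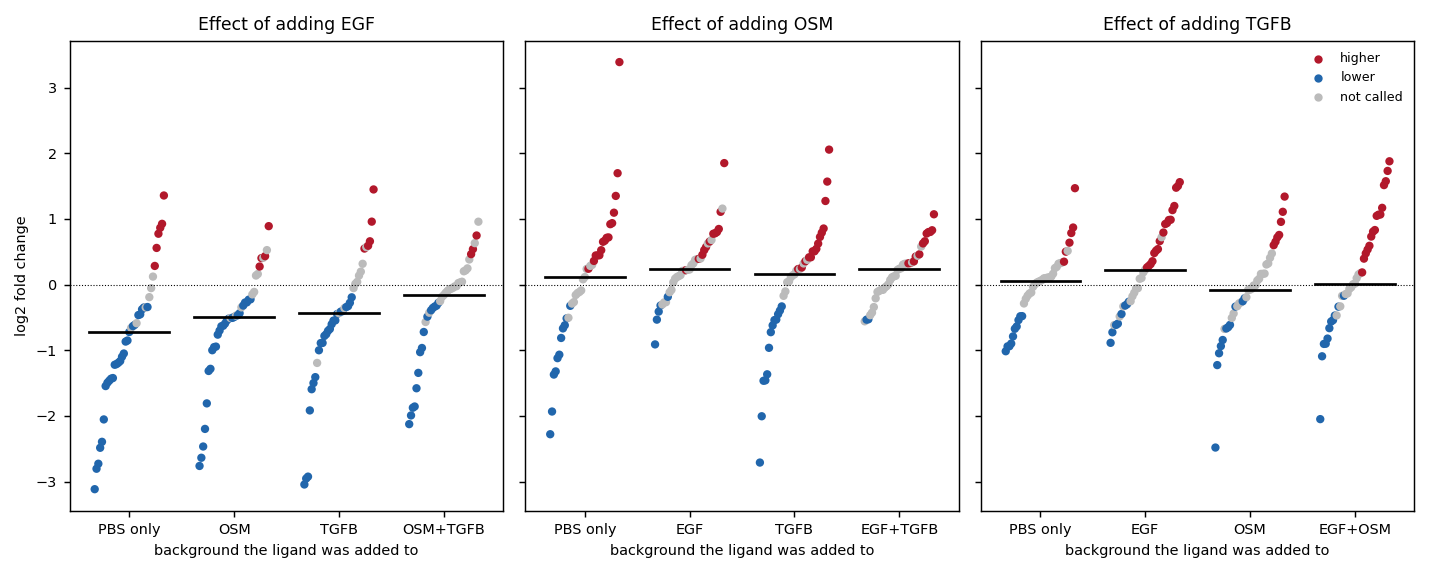
Log2 fold change of each of the 39 members when EGF, OSM or TGFB was added to each of 4 backgrounds, ordered by size within a column, with red for called higher, blue for called lower, grey for not called and a black line at the median. EGF lowered 27, 26, 24 and 15 members over PBS, OSM, TGFB and OSM+TGFB.

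Departure from additivity is the log2 fold change of a pair minus those of both ligands alone, all against PBS. A value of 0 means that log2 changes add. For EGF and OSM it was called for 19 members, 13 above and 6 below 0 (48.7%, against 38.7% of all genes, 15.7% above and 23.0% below). For EGF and TGFB it was called for 12, 11 above and 1 below (30.8% against 29.8%, with 13.3% above and 16.5% below), and for OSM and TGFB for 11, 5 above and 6 below (28.2% against 23.3%, with 9.61% above and 13.7% below). Without OSM replicate 3 the latter count was 7, and without TGFB replicate 2 it was 6. The 3-way interaction was called for SAMD9 alone (0.67 ± 0.16, edgeR adjusted p 0.014), against 3.90% of all genes. The departures, the sums and the pairs share the PBS libraries, so their signs are not independent.

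The IFIT1 fold changes were -2.49 for EGF and -2.28 for OSM, which add up to -4.76, and the pair gave -2.79. EGF+OSM left 0.867, 1.23 and 0.986 CPM, overlapping EGF alone. The departure was 1.98 ± 0.30 (SE) (edgeR adjusted p 7.5e-06). For IFIT2 it was 1.78 ± 0.32 (SE) (8.2e-05). For GBP1 both single ligands raised the level, the sum was 3.05, the pair gave 1.47, and the departure was -1.58 ± 0.13 (SE) (5.1e-10). By contrast, EGF and TGFB together came close to the sum for GBP1, with a sum of 2.83, a pair value of 2.92 and a departure of 0.09 ± 0.13 (SE) that did not pass. For IFITM1 the departure of EGF and OSM was -1.54 ± 0.39 (SE) (0.0024) and that of OSM and TGFB -1.33 ± 0.37 (SE) (0.0094).

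For EGF and TGFB all 3 signalling factors lay above the sum: IRF9 by 1.16 ± 0.19 (SE) (edgeR adjusted p 5.4e-05), IRF1 by 0.89 ± 0.17 (SE) (0.00028) and IRF7 by 0.69 ± 0.24 (SE) (0.029). The IRF7 value was not called without any 1 of 4 libraries: PBS replicate 2, EGF replicate 1, TGFB replicate 3 or EGF+TGFB replicate 2 (adjusted p 0.0675 to 0.0839). OASL had the largest departure of the list for this pair, 1.56 ± 0.25 (SE) (4.7e-05): each ligand alone lowered it, the sum was -2.32, and the pair gave -0.76. HERC5 was the member below the sum (-0.88 ± 0.24). For OSM and TGFB, OASL was again above the sum (1.31 ± 0.25), and GBP2 was at 1.01 ± 0.30 (SE) (adjusted p 0.02), which was not called without OSM replicate 3 (0.83, adjusted p 0.0599).

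**Figure D4:**
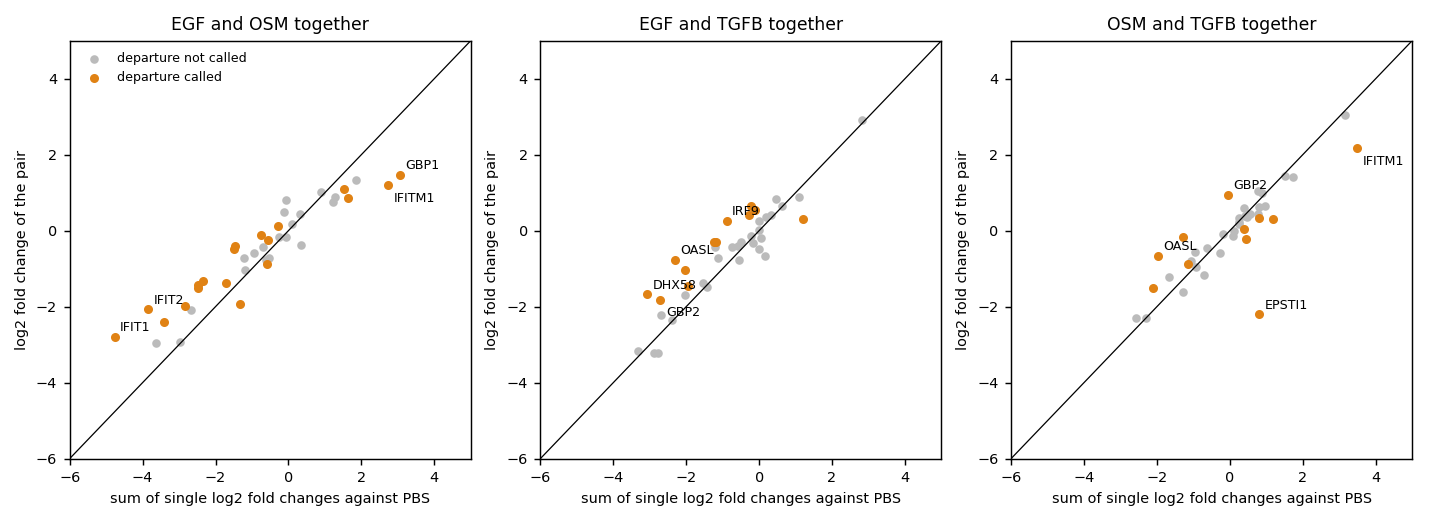
For each pair of ligands, the observed log2 fold change of the pair against PBS (vertical axis) and the added log2 fold changes of the single ligands (horizontal axis) for the 39 members, with a line where they are equal and orange points where the departure was called. Both axes share the PBS libraries. IFIT1 lies above the line for EGF and OSM (sum -4.76, pair -2.79) and GBP1 below it.

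Many members lie next to each other in the genome, and neighbours moved in opposite directions in some clusters and together in others. How often neighbours differ over all genes was not tested. Within 100 kb there were 11 pairs of adjacent members in GENCODE. The GBP1 and GBP2 genes, on the minus strand of chromosome 1, are 40772 bases apart, and EGF gave 1.36 for the former and -2.80 for the latter on the log2 scale. The OAS1, OAS3 and OAS2 genes lie in that order on chromosome 12, with gaps of 4832 and 1935 bases, and EGF gave -1.46, 0.87 and -1.10. HERC6 and HERC5 lie 14022 bases apart on chromosome 4, with -1.16 and 0.93 for EGF and -1.32 and 0.92 for OSM. In each of these clusters EGF lowered and raised adjacent genes. The IFIT2, IFIT3, IFIT1 and IFIT5 genes lie in that order on chromosome 10, and OSM gave -1.12, 0.67, -2.28 and -0.51. With EGF, IFIT2, IFIT3 and IFIT1 all fell (-2.73, -0.34 and -2.49). SAMD9 and SAMD9L, 12033 bases apart on chromosome 7, moved the same way with EGF (-0.46 and -0.85) and with TGFB (0.50 and 0.64). IFI44L and IFI44, 3651 bases apart on chromosome 1, both fell with EGF (-2.05 and -1.19). MX2 and CMPK2 were not called with EGF, beside MX1 (0.56) and RSAD2 (-3.12). Most of these neighbours are paralogs, and the sources used here do not say how shared reads were divided.

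**Figure D5:**
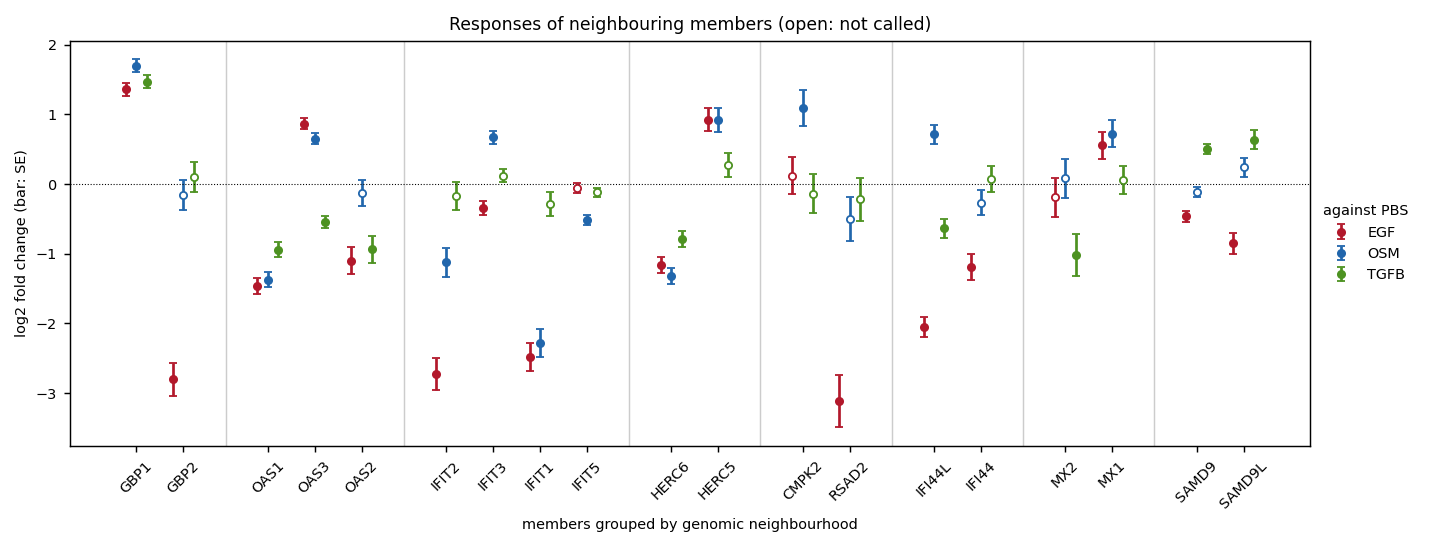
Log2 fold change against PBS with its standard error (bars) for EGF, OSM and TGFB in members grouped by genomic neighbourhood, in gene order, with open points where the change was not called. EGF points lie on opposite sides of 0 for GBP1 and GBP2, for OAS1 and OAS3, and for HERC6 and HERC5.

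In PBS against T0, which spans 24 h in fresh medium without ligand, 11 members passed, 3 higher and 8 lower (28.2%, against 35.1% of all genes, 16.2% higher and 18.9% lower). With DESeq2's size factors the split was 5 higher and 8 lower, and with a replicate block it was 9 higher and 8 lower. IRF1 rose, from 22.3, 21.6 and 17.6 CPM in T0 to 26.9, 33.9 and 28.2 in PBS (0.53 ± 0.12, edgeR adjusted p 0.00084), as did OAS1 (0.64 ± 0.11) and IFI27 (0.67 ± 0.18). USP18 (-0.74 ± 0.15) and GBP1 (-0.40 ± 0.10) fell. IFITM1 had a log2 fold change of -0.83 ± 0.27 (SE), which was not called without PBS replicate 1 or 2 (adjusted p 0.0762 and 0.069). IFIT1 was at 7.47, 8.27 and 6.76 CPM in T0 and did not pass (-0.07 ± 0.17).

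The rest of the interferon pathway was described from lists of related genes. None of the 8 interferon genes listed passed the filter. IFNG and IFNL2 were at 0 in all 27 libraries, IFNL3 had 1 count and IFNB1 2 counts over all libraries, IFNL1 7 and IFNA1 10, and the most abundant, IFNK and IFNE, had at most 10 and 9 counts in a library. A count of 0 in a library allows up to 3 counts, for counting error only. Of the 6 receptor genes, EGF raised 3 and lowered 3, OSM raised 3 and lowered 1, and TGFB raised 4 and lowered 1. Of all genes, EGF raised 34.9% and lowered 38.6%, OSM 33.5% and 29.8%, and TGFB 19.9% and 15.8%. The counts for this list and those below are small and are to be read beside these shares. IFNGR1, the ligand-binding chain of the interferon gamma receptor, fell from 153 ± 16.9 in PBS to 49.3 ± 1.37 CPM with EGF (SD, n = 3, log2 fold change -1.64 ± 0.10), and rose with OSM (0.63 ± 0.09). Its partner IFNGR2 rose from 46.9 ± 3.43 CPM in PBS to 84.9 ± 2.09 with EGF (0.86 ± 0.06) and 144 ± 9.33 with OSM (1.62 ± 0.06). IFNLR1, a chain of the type III receptor, rose with TGFB (1.5 ± 0.12) and with EGF (0.82 ± 0.12).

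Of 5 JAK kinases and STATs, EGF raised 2 and lowered 3, OSM raised 2 and lowered 2, and TGFB raised 2 and lowered 0. STAT2 was at 50.4 ± 2.11 CPM in PBS and 25 ± 3.54 with EGF (SD, n = 3, log2 fold change -1.01 ± 0.10, called), and at 51.2 ± 6.21 with OSM and 51.6 ± 3.14 with TGFB, neither called. STAT2 and IRF9, both subunits of ISGF3, were thus lower with EGF. Of 10 genes that sense nucleic acids or relay the signal, EGF raised 3 and lowered 4, OSM raised 4 and lowered 2, and TGFB raised 1 and lowered 1. CGAS, the DNA sensor, rose with EGF (1.71 ± 0.10) and OSM (2.12 ± 0.10). STING1, its adaptor, rose with OSM from 20.6 ± 1.30 to 125 ± 10.3 CPM (2.60 ± 0.08). STING1 also rose with EGF (1.13 ± 0.08) and TGFB (0.49 ± 0.08).

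Of 5 genes that restrain JAK and STAT signalling, EGF raised 1 and lowered 3, OSM raised 2 and lowered 3, and TGFB raised 0 and lowered 2. SOCS1, an inhibitor of JAK kinases, fell from 5.62 ± 0.425 CPM in PBS to 0.693 ± 0.0367 with EGF and 0.341 ± 0.107 with OSM (-3.01 ± 0.22 and -4.05 ± 0.25). CISH rose with OSM (2.29 ± 0.15) and with EGF (1.22 ± 0.15). A further 30 interferon-induced genes that are not members gave 5 higher and 17 lower with EGF, 16 higher and 3 lower with OSM, and 6 higher and 7 lower with TGFB. Over all genes the shares were 34.9% higher and 38.6% lower with EGF, 33.5% and 29.8% with OSM, and 19.9% and 15.8% with TGFB. Among those that EGF lowered, the chemokine CXCL10 went from 0.483 ± 0.0959 CPM in PBS to 0.0340 ± 0.0412 and RTP4 from 0.867 ± 0.127 to 0.0941 ± 0.115, both near the detection limit with EGF. TNFSF10, the death ligand TRAIL, went from 34.1 ± 1.47 to 5.52 ± 1.47 CPM (-2.61 ± 0.23). The largest rises with OSM were IFITM3, IFITM2 and IFI16 (1.83 ± 0.07).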

How the data were processed

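RNA-seq was made from 27 MCF10A libraries in 9 groups of 3, with groups and replicate numbers from the labels. The deposited table holds 40487 rows of whole-number estimated counts. The submitters' processing notes name Trim Galore 0.4.3, cutadapt 1.10, FastQC 0.11.5, kallisto 0.46.2, R 3.5.0 and the builds GRCh38.p5 and hg38, without their roles. The authors' estimated counts may divide reads between similar transcripts, and whether counting used strand is not given in the sources used here. The 7165 rows without a symbol (0.324% of counts) were kept under their Ensembl identifiers. Rows sharing a symbol were summed, which gave 36536 genes in all. edgeR 4.0.16 (R 4.3.3) fitted a mean per group over all 27 libraries with TMM scaling, filterByExpr and robust quasi-likelihood. The 15575 genes tested had 18 residual degrees of freedom, and adjusted p is Benjamini-Hochberg over all of them, two-sided, called under 0.05. The 22 comparisons were each adjusted on their own. SE is the fold change divided by the square root of F. TMM factors were 0.867 to 1.12, and the biological coefficient of variation was 7.83%. The fit was tested on simulated counts. Members and lists were chosen with earlier results of these data known. The 3 members with the widest range of group means in each role were described in full, with any whose departure was called at 1.5 or more. OAS3 and other members given with values were singled out after their values were seen. The list genes outside the members were named by the same size of change, and STAT2 for its role. Some genes of these lists are not reported here. Gene positions are from GENCODE (GRCh38), matched by Ensembl identifier, as whole gene spans. Alternatives were other scalings and filters, DESeq2 1.42.0, the row with the highest mean per symbol, a replicate block, only the groups compared, and leaving out each library. Same-numbered libraries of different groups correlated at -0.03 to 0.18 (median 0.06) in their deviations from group means. Differently numbered ones correlated at -0.16 to 0.12 (median -0.03). Libraries with the same number were thus slightly more alike, which the main fit did not model and the replicate block did.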

Additional observations from a re-analysis of the deposited data

Results flagged for a closer look

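The 6 departures below are differences between the effect of a ligand alone and its effect beside another ligand, each called by edgeR with an absolute value of at least 1.5 on the log2 scale. For EGF and OSM, IFIT1 was at 1.98 and IFIT2 at 1.78, both above the sum of the single ligands, and GBP1 at -1.58 and IFITM1 at -1.54, both below it. For EGF and TGFB, OASL was at 1.56. For OSM and TGFB, EPSTI1 was at -2.99 (adjusted p 0.042), a value that rests on a gene listed at 0 in 2 of the 3 OSM+TGFB libraries. That fitted value depends on the prior count and is no bound. It was not called without any 1 of 8 libraries (PBS replicate 1 or 2, OSM replicate 1 or 3, TGFB replicate 1 or 2, OSM+TGFB replicate 1 or 3), with adjusted p of 0.0503 to 0.146, and DESeq2 gave it no adjusted p.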

How the results depend on the processing

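Of the counts of members called, 2 moved by more than 1.5 times. PBS against T0 went from 11 (3 higher and 8 lower) to 17 (9 higher and 8 lower) with the replicate block, and the departure of OSM and TGFB went from 11 to between 6 and 10 with 1 library left out, 6 without TGFB replicate 2 and 7 without OSM replicate 3. The cause was not tested. With 1 library left out, the count was 31 to 34 for EGF, 26 to 27 for OSM, 11 to 15 for TGFB and 8 to 14 for the departure of EGF and TGFB. The replicate block rests on the replicate numbers, and what a number stands for is not given. In the column headers, sample numbers run through all 9 groups of a replicate number before the next. With the block, 43 results of single genes gained a call and 0 lost one. Of the same-numbered pairs of libraries 23 of 108 correlated above 0.1, against 1 of 216 differently numbered pairs. A total of 25 of 27 libraries correlated best with a library of their own number. For single genes, 1014 results gave 15473 values under the alternatives. Of these, 14430 kept their direction and side of the threshold, 500 lost the call, 178 gained one, 365 changed sign without being called in either fit, and 0 called values reversed. Low counts limit EPSTI1 most. Members near 1 CPM or under it, among them DHX58, RSAD2, MX2, IFITM1, CMPK2 and XAF1, rest on few counts in some groups.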
